A study of Rattus norvegicus with 6 samples.

Results

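The retinoid visual cycle is described here through 10 genes, Rpe65, Lrat, Rlbp1, Rdh5, Rdh8, Rdh10, Rdh11, Rdh12, Abca4 and Rbp3, in RNA from rat retina. They were chosen by symbol, without regard to case, from a list drawn up by known role at a time when earlier results of these data were known. Each symbol matched 1 of the 26406 rows of the gene table. The series holds 6 samples in 3 groups of 2. The first group is sham-operated wild-type rats of the Long Evans strain. The second is sham-operated rats of the Royal College of Surgeons strain (RCS), in which photoreceptors are lost because the retinal pigment epithelium (RPE) fails to engulf shed outer segments. The third is RCS rats that carried human neural progenitor cells (hNPCs) grafted under the retina. Surgery was at postnatal day 21 and the tissue was taken at postnatal day 60. Sham eyes received the carrier medium without cells. RNA came from isolated neural retina, limited to the portion with the graft or its counterpart in sham eyes. The labels do not say whether the 2 samples of a group are separate animals.

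The deposited table gives 1 FPKM value per gene (fragment numbers scaled to transcript length and to sequencing depth), with a lower and an upper bound, and none of its columns names a sample or a group. Each value therefore stands for 1 library or for several pooled ones, and only genes, not groups, were set against each other. No comparison between strains or between grafted and sham eyes was made, and no SD or p-value is given. Bounds in brackets are the deposited ones. They are read here as counting error and do not hold the spread between animals or libraries.

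Vision in rods and cones starts when light converts 11-cis-retinal, the chromophore of the visual pigments, to all-trans-retinal. The visual cycle is the set of reactions that returns it to the 11-cis form. Photoreceptors clear and reduce all-trans-retinal to retinol; the RPE esterifies the retinol, isomerises it and oxidises it back to 11-cis-retinal; and Müller glia, which span the thickness of the retina, hold 11-cis retinoids and take part in a further route that supplies cones. Retinoids cross the space between these cells on a carrier secreted by photoreceptors. Because the tissue here was neural retina, levels of RPE genes depend on how much RPE came with it as well as on the RNA per cell. The 2 cannot be told apart in bulk RNA. Levels of photoreceptor genes likewise depend on how many photoreceptors the tissue held, and the value column does not say which strain it describes.

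Promoter sequences are shown for the 3 genes whose windows held a homeobox core, TAATCC, a sequence that CRX and OTX2, transcription factors of photoreceptors and RPE, are known to bind. They are the 2 photoreceptor genes with the highest FPKM and the isomerase gene of the RPE. Each window covers the 250 bases before the start of the gene in RefSeq for build GRCr8 (the expression values use another build, rn5), reads 5′ to 3′ on the strand of the gene, and carries the core in capitals, here as GGATTA because it lay on the opposite strand. The Rbp3 window is chr16:9273537-9273786 on the plus strand, the Abca4 window chr2:212849235-212849484 on the plus strand, and the Rpe65 window chr2:251425118-251425367 on the plus strand.
Rbp3: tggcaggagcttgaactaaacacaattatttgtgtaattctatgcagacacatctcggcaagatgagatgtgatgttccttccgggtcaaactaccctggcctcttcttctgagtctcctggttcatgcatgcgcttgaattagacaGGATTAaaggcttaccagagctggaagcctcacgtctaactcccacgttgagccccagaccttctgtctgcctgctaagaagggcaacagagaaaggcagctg
Abca4: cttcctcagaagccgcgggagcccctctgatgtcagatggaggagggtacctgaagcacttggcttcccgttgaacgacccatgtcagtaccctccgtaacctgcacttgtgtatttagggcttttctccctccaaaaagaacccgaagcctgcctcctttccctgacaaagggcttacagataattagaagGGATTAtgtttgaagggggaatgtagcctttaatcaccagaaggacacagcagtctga
Rpe65: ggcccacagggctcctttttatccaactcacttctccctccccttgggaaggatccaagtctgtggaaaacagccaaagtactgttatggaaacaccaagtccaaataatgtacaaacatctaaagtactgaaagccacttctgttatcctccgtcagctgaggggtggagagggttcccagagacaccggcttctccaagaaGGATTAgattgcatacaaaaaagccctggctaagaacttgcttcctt

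The first letter of the core lay 103 bases before the start in Rbp3, 58 in Abca4 and 47 in Rpe65. A window was found for 8 of the 10 genes (not for Rdh8 and Rdh10), and TAATCC on either strand was in 3 of the 8. Among all 33469 windows of that length, 6.34% held it. The E-box CAGCTG, which reads the same on both strands, was in the windows of Rpe65, Rbp3 and Rdh5, again 3 of 8, against 11.97% of all windows. TATAAA was in none of the 8, against 12.9% of all. No CAGCTG overlapped a TAATCC. The motifs were chosen after the windows had been read, so the counts are a description, and a match of letters does not show binding.

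All 10 genes reached 1 FPKM, against 52.6% of all rows, and their levels covered a 93.2-fold range. Rbp3 was highest and Lrat lowest. Of the 10, 4 reached 100 FPKM, a level reached by 1.66% of all rows, and 3 were under 10 FPKM. Most rows were under that level too: 71.0% were lower than Rdh10, the highest of these 3 at 7.66 FPKM. The median of the 10 was 38.1 FPKM, against 1.39 FPKM over all rows and 8.90 FPKM over the 13900 rows at 1 FPKM or more. Together the 10 genes made up 0.260% of the FPKM total over all rows.

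**Figure D1:**
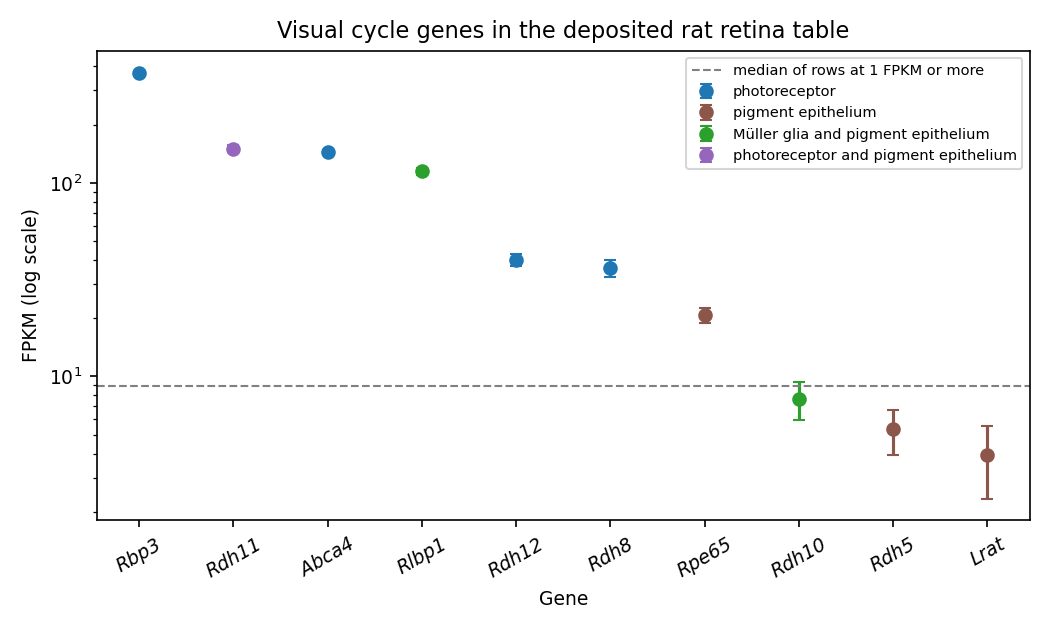
FPKM of the 10 visual cycle genes on a log axis, in order of level and coloured by the cells in which each step is known to take place; bars are the deposited bounds and the dashed line is the median of all rows at 1 FPKM or more (8.90 FPKM). Photoreceptor genes lie between 36.2 and 367 FPKM, RPE genes between 3.94 and 20.7 FPKM, and the 3 lowest genes fall under the dashed line.

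Among the photoreceptor genes, Rbp3 encodes the interphotoreceptor retinoid-binding protein, the carrier secreted into the space between photoreceptors and RPE. It stood at 367 FPKM (362 to 373), rank 74 of 26406 rows, and was 2.45 times the next gene of the cycle (95% counting interval 2.35 to 2.55). In build rn5 its row (ENSRNOG00000020265) lies at 8598416 to 8606885 of chromosome 16. Abca4, the transporter of outer segment disc rims that moves retinal conjugated to phosphatidylethanolamine out of the disc lumen, stood at 145 FPKM (142 to 148), rank 272. The row of Abca4 (ENSRNOG00000012892) lies at 243682339 to 243818929 of chromosome 2. Of all rows, 99.7% were lower than Rbp3 and 98.97% lower than Abca4.

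The 2 retinal reductases placed with photoreceptors alone, Rdh12 and Rdh8, were lower. Rdh12, the retinol dehydrogenase of photoreceptor inner segments, stood at 40.1 FPKM (37.1 to 43.0), and Rdh8, the enzyme of outer segments that reduces all-trans-retinal, at 36.2 FPKM (32.7 to 39.7). The ratio of Rdh12 to Rdh8 was 1.11 with a 95% counting interval of 0.982 to 1.25, so the order of these 2 genes is not set at this depth. Abca4 was 4.004 times Rdh8 (3.64 to 4.41) and 3.62 times Rdh12 (3.36 to 3.90). Within the photoreceptor set, which does not hold Rdh11, the carrier and the transporter were several times above either reductase. Rdh8 (ENSRNOG00000025767) lies at 21891191 to 21898463 of chromosome 8, and Rdh12 (ENSRNOG00000011930) at 115079501 to 115092424 of chromosome 6.

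Rdh11, a retinol dehydrogenase related to Rdh12 and known from both RPE and photoreceptors as well as from many other tissues, was the second highest gene of the 10. It stood at 149.99 FPKM (144 to 156), rank 258. Its ratio to Abca4 was 1.03 with an interval of 0.991 to 1.08, which includes 1. The row of Rdh11 (ENSRNOG00000011902, 115043172 to 115059292 of chromosome 6) lies 20.2 kb from that of Rdh12, and the 2 rows do not overlap. Rdh11 was 3.74 times Rdh12 (3.45 to 4.07). How reads that align to more than 1 of these related genes were shared out is not given in the sources used here.

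Of the genes shared by Müller glia and RPE, Rlbp1 encodes CRALBP, the protein that binds 11-cis-retinal and 11-cis-retinol in both cell types. It stood at 114 FPKM (110.3 to 119), rank 365, between Abca4 and Rdh12. Abca4 was 1.27 times Rlbp1 (1.22 to 1.32). Rdh10, a dehydrogenase of both RPE and Müller glia that oxidises retinol, was far lower at 7.66 FPKM (5.96 to 9.36), rank 7657. Rlbp1 was 14.9 times Rdh10 (11.99 to 18.6), so this set holds one high and one low gene. Rlbp1 (ENSRNOG00000016897) lies at 142059882 to 142073463 of chromosome 1 and Rdh10 (ENSRNOG00000006681) at 2593903 to 2620243 of chromosome 5.

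The RPE genes were the lowest set. Rpe65, the isomerase that turns all-trans-retinyl esters into 11-cis-retinol, led them at 20.7 FPKM (18.8 to 22.5), rank 3227, and its row (ENSRNOG00000009582) lies at 284774181 to 284804254 of chromosome 2. Rdh5, the 11-cis-retinol dehydrogenase that completes the cycle in RPE, stood at 5.35 FPKM (3.94 to 6.75). Lrat, the acyltransferase that makes the retinyl esters on which Rpe65 acts, stood at 3.94 FPKM (2.33 to 5.55). Rpe65 was 3.86 times Rdh5 (2.94 to 5.07) and 5.24 times Lrat (3.48 to 7.89), while Rdh5 and Lrat could not be ordered (ratio 1.36, interval 0.843 to 2.18). Rdh5 (ENSRNOG00000040155) lies at 3306530 to 3311337 of chromosome 7 and Lrat (ENSRNOG00000025608) at 201315317 to 201319723 of chromosome 2. The Lrat row is the only one of the 10 that overlaps another row of the table, that of FGA, which was listed at 0 FPKM. Whether the table counts start positions from 0 or from 1 is not given in the sources used here.

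Over all 45 pairs of the 10 genes, the 95% counting interval of the ratio excluded 1 in 42. The 3 exceptions were neighbours in the order: Rdh11 with Abca4, Rdh12 with Rdh8, and Rdh5 with Lrat. The other 6 neighbouring pairs were apart, the closest to 1 at its lower bound being Rdh10 with Rdh5 at a ratio of 1.43 (1.02 to 2.01). With a lower bound so near 1, the order of Rdh10 and Rdh5 is weakly set. By implied fragments, which are not divided by length, the interval for Rdh10 and Rdh5 includes 1 (ratio 1.40, 0.997 to 1.956). That is another quantity, so it does not decide their order by FPKM. By FPKM the levels fall into the order Rbp3, then Rdh11 and Abca4, then Rlbp1, then Rdh12 and Rdh8, then Rpe65, Rdh10, and last Rdh5 and Lrat.

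**Figure D2:**
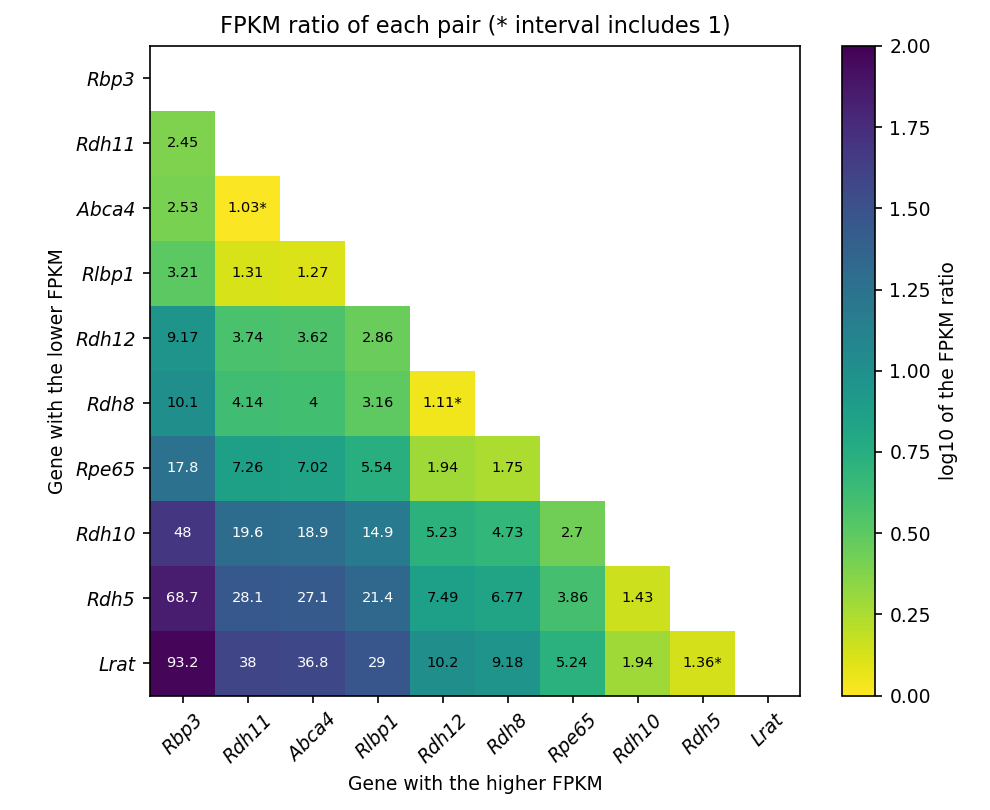
FPKM ratio of each of the 45 pairs of visual cycle genes, with the higher gene in columns and the lower gene in rows; colour is the log10 of the ratio and an asterisk marks an interval that includes 1. Ratios run from 1.03 for Rdh11 to Abca4 up to 93.2 for Rbp3 to Lrat, and 3 pairs carry an asterisk.

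By the site of the step, the 4 photoreceptor genes summed to 589 FPKM (581 to 597), 66.1% of the FPKM of the 10 genes. The 2 genes shared by Müller glia and RPE summed to 122 FPKM (118 to 127), or 13.7%. Rdh11 alone held 16.8%, and the 3 RPE genes together 3.36%, with a sum of 29.95 FPKM (27.1 to 32.8). The photoreceptor sum was 19.7 times the RPE sum (17.9 to 21.6) and 4.82 times that of the shared Müller glia and RPE genes (4.64 to 5.01). The second of these moved widely with the summary used: it was 1.52 from medians, 9.50 from implied fragments, 28.9 without the highest gene of each set and 76.9 without Rlbp1 alone. By implied fragments the ratio to the RPE genes was 52.3. The photoreceptor genes differed from each other by up to 10.1-fold and the RPE genes by up to 5.24-fold. The sum of the shared Müller glia and RPE genes was 4.08 times the RPE sum (3.69 to 4.50). Without Rlbp1 alone it was 0.256, and without both Rlbp1 and Rpe65, the highest of each set, 0.824. It also turned on where Rdh11 is placed, at 0.679 with Rdh11 counted as an RPE gene. From medians it was 11.4, and from geometric means with pseudocount 1 it was 3.93. With Rlbp1 and Rdh10 counted as RPE genes, the photoreceptor sum was 3.87 times the RPE sum, and with Rdh11 counted there 3.27 times.

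The members also differed in level from the marker genes of the same cells. The 10 rod markers ran from 138 to 6641 FPKM, with 815 FPKM as the median. Rbp3 lay above 3 of these 10 and Abca4 above 1, while Rdh8 and Rdh12 lay below all of them. Prph2, the tetraspanin that shares the disc rim with Abca4, was 15.7 times Abca4 (15.3 to 16.1), and its partner Rom1 was 6.87 times Abca4 (6.71 to 7.03). Photoreceptor genes of the cycle were thus high in the table but mostly below the structural and transduction genes of rods. The 9 cone markers ran from 1.18 to 58.4 FPKM around a median of 28.4 FPKM, and that median lay under all 4 photoreceptor genes of the cycle.

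Among the 11 Müller glia markers, with a median of 60.1 FPKM, Rlbp1 lay above 7 and Rdh10 above 1. Glul, the glutamine synthetase of Müller glia, was 5.39 times Rlbp1 (5.19 to 5.60). Of the 19 RPE markers, 16 reached 1 FPKM and none was listed at 0; their median was 4.28 FPKM, their sum 464 FPKM and their range 0.270 to 180 FPKM. The highest 2, Otx2 (180 FPKM over 2 rows) and Ttr (152 FPKM), are not confined to RPE, since Otx2 is also known from photoreceptors and bipolar cells. Rgr (24.0 FPKM), also on this list, is an opsin of both RPE and Müller glia. Best1, the chloride channel of the RPE, was the lowest at 0.270 FPKM (0.0495 to 0.490). Rpe65 exceeded 14 of the 19, Rdh5 12 and Lrat 9. Rpe65 was 4.83 times the median of the RPE markers and 76.5 times Best1 (34.2 to 171), the lowest of them. In the choroid and stroma list 2 of 7 markers reached 1 FPKM, with a summed level of 4.86 FPKM. Summed levels were 23.5 FPKM for 3 blood markers, 25.7 FPKM for 4 microglia markers and 491 FPKM for 4 lens markers. Of the lens markers, Cryaa (alpha-crystallin) held 427 FPKM and Cryba1 61.0 FPKM. The other lens markers, Mip and Lim2, were low at 1.60 and 1.81 FPKM. The part that RPE carried along with the retina had in the levels of Rpe65, Rdh5 and Lrat was not tested.

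**Figure D3:**
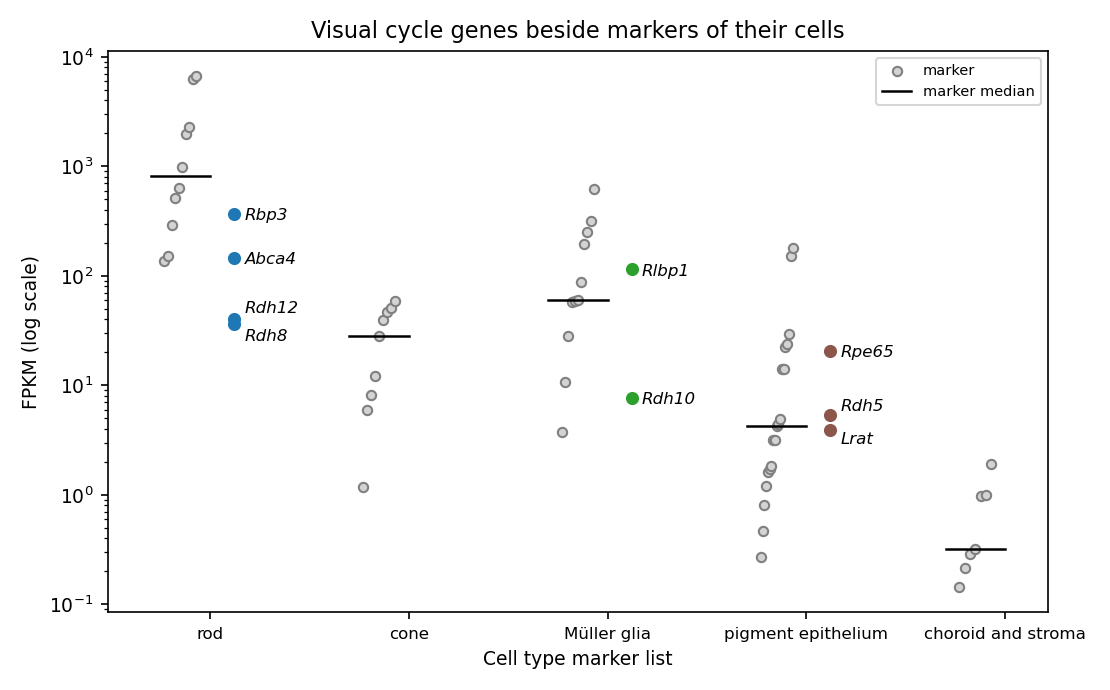
FPKM on a log axis of the markers of each cell type (grey circles, with a line at their median) and of the visual cycle genes of that cell type (coloured). Rdh8 and Rdh12 lie below all 10 rod markers, Rlbp1 above 7 of 11 Müller glia markers and Rpe65 above 14 of 19 RPE markers.

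The fragment number behind each value sets its precision. If the bounds span 2 standard errors on each side, Rbp3 rests on 16167 fragments, Abca4 on 12424, Rlbp1 on 3050 and Rdh11 on 2542. Rdh12 rests on 726 fragments, Rpe65 on 487 and Rdh8 on 426. The 3 lowest genes rest on 81 (Rdh10), 58 (Rdh5) and 24 (Lrat), and their implied numbers were all within 0.02 of a whole number. Of all 10 genes, 5 were that close, and Rdh8 was not, at 426.34. The bounds accordingly lie 1.57% from the value in Rbp3 and 40.8% in Lrat. Fragments per unit of FPKM, which scale with the transcript length used by the authors, ran from 6.09 in Lrat to 85.7 in Abca4. Without the division by length, 3 pairs stood in the opposite order: Abca4 and Rlbp1 each had more fragments than Rdh11, and Rpe65 more than Rdh8.

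**Figure D4:**
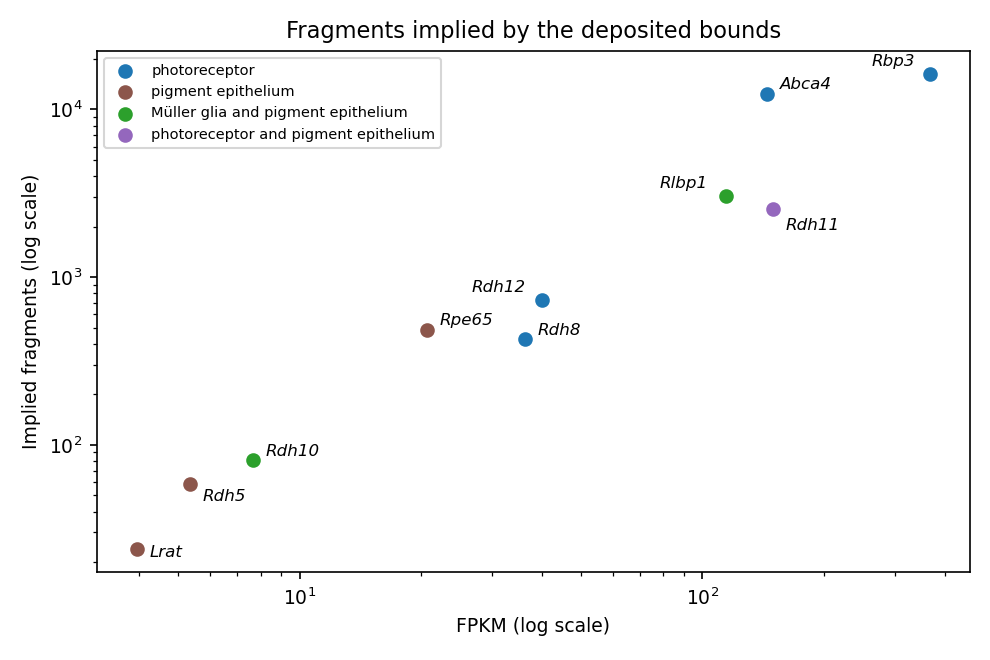
Implied fragments against FPKM for the 10 visual cycle genes, both on log axes, coloured by the site of the step. Abca4 lies well above Rdh11 at nearly the same FPKM (12424 against 2542 fragments), and Lrat, with 24 fragments, is at the lower left.

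The 5 retinol dehydrogenases among the members summed to 239 FPKM, of which Rdh11 held 62.7%, Rdh12 16.7%, Rdh8 15.1%, Rdh10 3.20% and Rdh5 2.23%.
Of 13 other retinol dehydrogenases and retinal reductases with a row, the median was 0.405 FPKM; 6 were at or above 1 FPKM and 5 at 0. Rdh14 stood at 5.81 FPKM (4.75 to 6.88) and Rdh13 at 3.31 FPKM (2.64 to 3.98), so that Rdh11 was 25.8 times Rdh14 (21.5 to 31.0) and 45.3 times Rdh13 (37.1 to 55.4). Dhrs3, a retinal reductase known from cones, was at 3.72 FPKM (2.92 to 4.53), and Dhrs7 at 27.7 FPKM summed over 2 rows (24.2 to 31.1). Dhrs13, matched by a synonym, stood at 12.8 FPKM (10.4 to 15.3), above the members Rdh10 and Rdh5. Rdh7, Dhrs9, Hsd17b6, Adh1 and Adh7 were listed at 0. Rdh11, Rdh12 and Rdh8 were thus the 3 highest of the 18 dehydrogenases and reductases measured.

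Genes that take up, bind and carry retinoids included some at the level of the upper members. Their median was 5.09 FPKM, and 7 of 8 measured genes were at 1 FPKM or above. Ttr, the partner of the retinol carrier in blood, was at 152 FPKM (142 to 162), and Rbp4, that carrier, at 7.04 FPKM (5.25 to 8.83). Stra6, the receptor through which RPE takes up retinol from Rbp4, was at 3.15 FPKM (2.50 to 3.79), near Lrat.

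The set of retinal-binding opsins outside rods and cones and of isomerase-like genes had a median of 11.5 FPKM, and 6 of its 7 measured genes were at 1 FPKM or above. Rrh (peropsin, of the RPE) stood at 29.5 FPKM (26.3 to 32.8) and Rgr, an opsin of RPE and Müller glia that can form 11-cis-retinal in light, at 24.0 FPKM (21.7 to 26.3). Rpe65 was 0.860 times Rgr (0.755 to 0.979), and Rrh was 1.43 times Rpe65 (1.24 to 1.64), so these 3 genes lay close together. Degs1, a desaturase put forward as an isomerase of a Müller glia route, was at 26.2 FPKM (23.6 to 28.9), and Opn4 (melanopsin) of light-sensitive ganglion cells at 11.5 FPKM (10.2 to 12.9). The median of the esterification and hydrolysis genes was 5.34 FPKM, and 7 of the 8 were at 1 FPKM or above. Dgat1, an acyltransferase able to esterify retinol, stood at 5.99 FPKM (4.87 to 7.12), near Lrat, while Awat2, which has the same ability, was listed at 0.

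Over all 7 lists of other retinoid genes, the median was 3.23 FPKM, against 38.1 FPKM for the 10 visual cycle genes. Of the 52 measured genes on these lists, 35 were at 1 FPKM or above and 13 at 10 FPKM or above. Among all rows, 52.6% were at 1 FPKM or above, and 71.0% were lower than Rdh10 at 7.66 FPKM. Another 3 listed genes had no matching row.

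**Figure D5:**
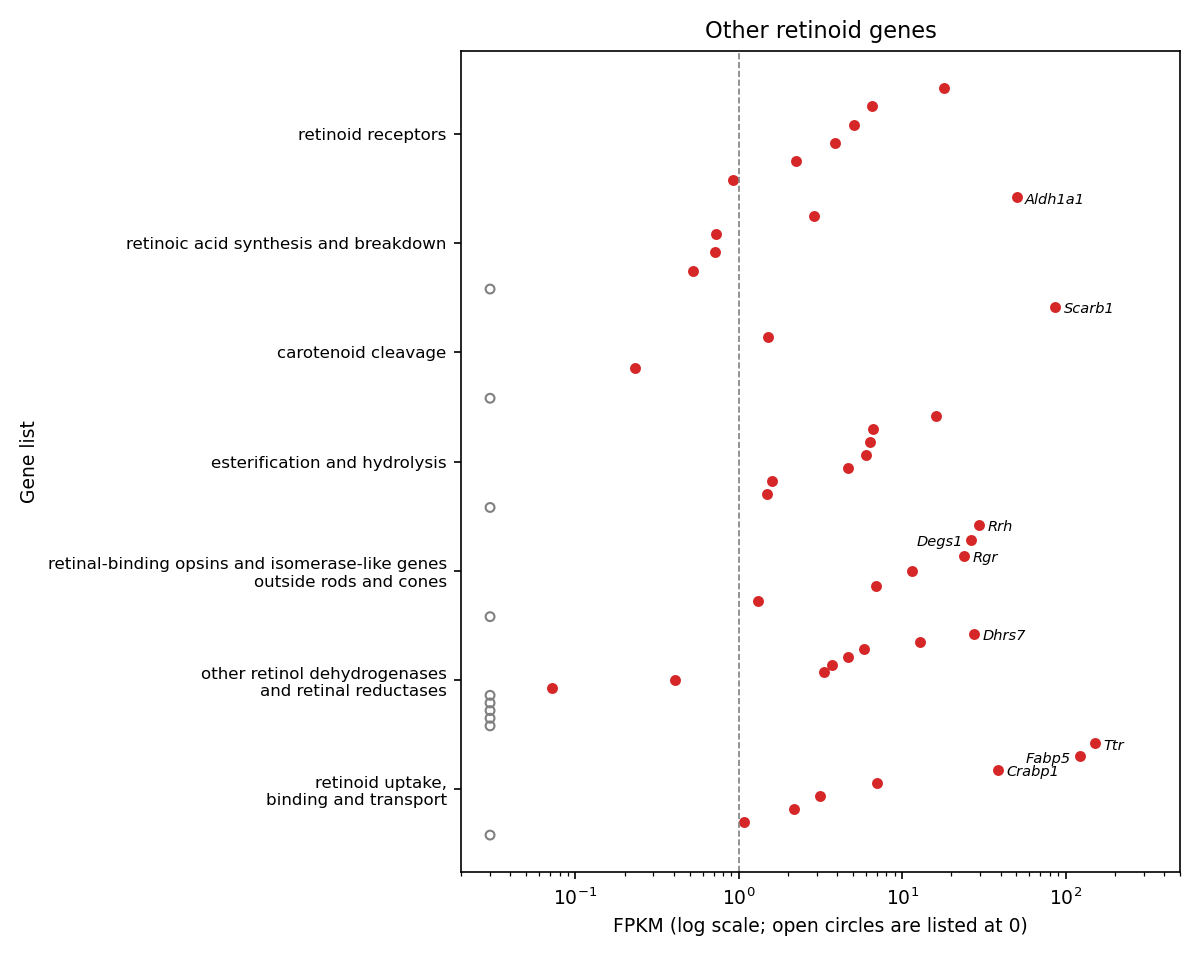
FPKM of 52 other retinoid genes on a log axis, grouped in 7 lists; open circles stand for genes listed at 0, the dashed line is 1 FPKM, and genes at 20 FPKM or more are named. Ttr and Fabp5 lie above 100 FPKM, and 10 genes are listed at 0.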

How the data were processed

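RNA from 6 retinal samples (3 groups of 2) was sequenced on libraries from an Ion Total RNA-seq kit, per the labels' protocols. The authors deposited 1 gene table of FPKM values with confidence bounds, in Cufflinks format per the file headers. Cufflinks 2.0.8 and build rn5 come from the submitters' processing notes. Which aligner, annotation and confidence level were used is not given in the sources used here. FPKM divides by transcript length, so a level depends on the transcript model used.

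No column names a sample, so the planned group comparisons were not run. Bounds were read as 2 standard errors per side, which gives the implied fragments, (FPKM / standard error) squared, 6124332 over all rows. Ratios carry 95% intervals by the delta method on the log scale (Python 3.11.15, numpy 2.4.6, pandas 2.3.3). These intervals cover counting error only. They were checked on fragment numbers simulated with counting error and bounds of 2 standard errors per side. That check assumes this reading of the deposited bounds, so it cannot test it. Rows sharing a symbol were summed. From the retinoid lists, 1 gene is not reported here and was left out of their counts. Unmatched symbols were looked up as synonyms in RefSeq (GRCr8). The members and lists, among them the retinoid and marker lists, were chosen with earlier results of these data known. All 10 members are named. Of the other lists only some genes are named, and not every gene at 1 FPKM or more is among them. Those named at lower levels were chosen after their values were seen.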

Additional observations from a re-analysis of the deposited data

How the results depend on the processing

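Matching by exact symbols, or keeping the highest row per symbol, changed none of the 10 values. Rescaled to a fixed total (TPM), the median of the 10 genes was 111, from 38.1 FPKM, with ratios untouched. The number of pairs apart was 42, the same number with bounds read at the normal 95% quantile and with the interval of the difference, and 44 with implied fragments. Of the 42, implied fragments kept 39 apart in the same direction, put 2 apart in the opposite direction (Rdh11 with Rlbp1, Rdh8 with Rpe65) and left 1 not apart (Rdh10 with Rdh5). The ratio of photoreceptor to RPE genes, 19.7 from sums, was 17.3 from medians, 12.1 and 12.3 from geometric means with pseudocounts 1 and 0.1, 52.3 from implied fragments, 24.7 and 3.27 with Rdh11 counted as a photoreceptor or an RPE gene, 3.87 with Rlbp1 and Rdh10 counted as RPE genes, and 23.8 without the highest gene of each set. The ratio of photoreceptor to shared Müller glia and RPE genes, 4.82, was 1.52 from medians, 3.08 and 3.16 from geometric means (pseudocounts 1 and 0.1), 9.50 from fragments, 6.05 with Rdh11 among photoreceptor genes, 28.9 without the highest gene of each set and 76.9 without Rlbp1 alone (chosen after seeing the data). The ratio of shared to RPE genes, 4.08, was 11.4 from medians, 3.93 and 3.91 from geometric means (pseudocounts 1 and 0.1) and 5.50 from fragments. It fell below 1 with Rdh11 among RPE genes (0.679), without the highest genes (0.824) and without Rlbp1 alone (0.256). Depth limits Lrat, Rdh5 and Rdh10 most. No paired analysis was possible because replicate numbers attach to samples and the single value column names none. The group fits, their replicate block, pseudocount and filter alternatives and the leaving out of each library were therefore not run.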

Other observations

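Genes of retinoic acid, the other product of retinal, were also measured. Of 6 measured genes for its synthesis and breakdown, 2 reached 1 FPKM, against 52.6% of all rows. They were Aldh1a1, a retinal dehydrogenase, at 50.1 FPKM (deposited bounds 47.2 to 53.0), and Cyp26a1, which breaks retinoic acid down, at 2.90 FPKM (2.13 to 3.67). Aldh1a3 was at 0.729 FPKM (0.308 to 1.15) and Aldh1a2 was listed at 0. Aldh1a1 thus stood above Rdh12 and Rdh8 and under Rlbp1. Of the 6 retinoid receptor genes, 5 reached 1 FPKM, against the same 52.6% of all rows. Rxrb led them at 18.1 FPKM (16.5 to 19.7), followed by Rxra at 6.52 FPKM (5.43 to 7.61). Rara was at 5.10 FPKM (4.17 to 6.02) and Rxrg at 0.922 FPKM (0.509 to 1.33).

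In the carotenoid list, Scarb1, a lipoprotein receptor that takes up carotenoids, stood at 86.4 FPKM (81.2 to 91.7), while Bco1, the enzyme that cleaves beta-carotene to retinal, was listed at 0 under an older symbol and Bco2 was at 1.52 FPKM (0.201 to 2.83).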
